A study of Mus musculus with 6 samples.

Results

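The genes described here are the 10 that encode or control MHC class II antigen presentation in the mouse: the invariant chain gene Cd74, the classical chain genes H2-Aa, H2-Ab1 and H2-Eb1, the peptide loading genes H2-DMa, H2-DMb1, H2-DMb2, H2-Oa and H2-Ob, and the transactivator gene Ciita. They were chosen by name, and an array probe was assigned to one of them when its RefSeq accession mapped to that symbol. Of the 10 genes, 9 had a probe, with 14 of the 41174 probes on the array between them, and H2-Eb1 was not analysed here. All 9 were bright enough to be tested, among 7906 named genes and 11499 features in all, a feature being the brightest probe of a gene or an unnamed probe. For 6 of them both diets were well above background, by Agilent's own mark, on all 4 tested arrays. H2-DMb2, H2-Ob and Ciita entered through their control signal alone, a route into the test that favours low values in food-restricted blood.

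The blood came from male C57BL/6J mice aged 9 weeks. One group of 8 was given 50% food restriction (FR) on CE-2 chow for 2 weeks, and the other group of 8 ate a normal diet. Whole blood was drawn from the right ventricle under somunopentyl anaesthesia and frozen, and samples were combined by animal number in each diet, animals 1 to 8 in pool 1, animals 1 to 4 in pool 2 and animals 5 to 8 in pool 3. Each pool was hybridised on 2 two-colour arrays with the dyes exchanged, so that both diets of a pool shared every one of the 6 arrays. Pool 1 holds the animals of the other pools on a different slide and was kept as a repeat measurement, so each test rests on 2 pools of 4 animals per diet and does not see the spread between single mice.

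MHC class II molecules present peptides from endocytosed proteins to CD4 T cells and are made mainly by B cells, dendritic cells, monocytes and macrophages. The alpha and beta chains assemble with the invariant chain, which fills the groove and carries them to the endosome. There cathepsins trim the invariant chain down to a fragment, the H2-DM dimer exchanges that fragment for peptide, and the H2-DO dimer restrains H2-DM, above all in B cells. The chain genes share a promoter module of S, X1, X2 and Y boxes bound by RFX, CREB and NF-Y, and the complex is inactive until CIITA joins it.

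That module is shown first, since CIITA acts through it on the chain genes whose values follow. RefSeq promoter windows (GRCm38.p6, 250 bases before to 50 after a gene start) matched 7 of the 10 genes. The 63 bases that follow run 5′ to 3′ on the gene's own strand and hold ATTGG, the letters of the Y box core, near their end. Capitals mark letters wherever they occur, at a box or not: ATTGG, then AGCAAC as in X1, and the X2 core letters TGACG and, with 1 letter changed, TGATG. In H2-Eb1 a TGATG stands 8 bases before ATTGG, nearer than the spacing searched for. H2-DMa alone had 2 windows, and its ATTGG lies far from the gene start of the window shown.
H2-Aa: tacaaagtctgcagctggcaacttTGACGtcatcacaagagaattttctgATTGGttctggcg
H2-Eb1: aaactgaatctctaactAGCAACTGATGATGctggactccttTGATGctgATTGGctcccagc
H2-DMb1: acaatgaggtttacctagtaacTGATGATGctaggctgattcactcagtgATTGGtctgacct
H2-DMb2: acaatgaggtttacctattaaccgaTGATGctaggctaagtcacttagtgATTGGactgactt
H2-Ob: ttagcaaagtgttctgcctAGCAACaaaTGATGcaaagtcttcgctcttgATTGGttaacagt
H2-Oa: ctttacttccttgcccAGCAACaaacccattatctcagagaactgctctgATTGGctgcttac
H2-DMa: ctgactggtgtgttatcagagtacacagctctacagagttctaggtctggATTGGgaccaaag

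These runs lie in the class II region of chromosome 17, at chr17:34287859-34287921 on the minus strand for H2-Aa and on the plus strand for the others. H2-Eb1 is at chr17:34305758-34305820, H2-DMb1 at chr17:34153080-34153142, H2-DMb2 at chr17:34145109-34145171, H2-Ob at chr17:34238798-34238860, H2-Oa at chr17:34092286-34092348 and H2-DMa at chr17:34125270-34125332. ATTGG, read on both strands, occurred in all 7 genes and in 37.4% of 32851 promoter windows, and its longer form CTGATTGG, which contains it, occurred in 3 of 7 (H2-Aa, H2-Eb1 and H2-Oa) and in 4.1% of windows. TGACG occurred in 1 of 7 (H2-Aa) and in 20.8% of windows, TGATG in 6 of 7 and in 39.3%, and AGCAAC in 3 of 7 and in 14.8%. An X2 core in either form standing 20 to 30 bases before ATTGG was found in 5 of 7 genes and in 1.08% of windows. A gene counts here when any of its windows holds the letters, and the 7 genes have 8 windows. By window, ATTGG was in 7 of 8, TGATG in 6 of 8 and this pair in 5 of 8. The exceptions were H2-Oa, with ATTGG 43 bases before the start and no X2 letters at that spacing, and H2-DMa. In the H2-DMa window shown, ATTGG lay 198 bases before the start. That run lies inside the gene's span of chr17:34119693-34139101, and the other H2-DMa window held no ATTGG. The TGATG form, the X1 letters and the spacing were searched for after the letters had been read. Of the 7 promoters shown, 6 belong to genes measured on the arrays, and H2-Eb1 does not.

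Every class II gene measured was lower in FR blood than in control blood. Testing the log2 ratio of FR over control against 0 with limma and Benjamini-Hochberg adjustment over all 11499 features (threshold 0.05) called 9 of 9 genes lower and none higher. Across all features 24.3% were called lower and 3.78% higher. H2-DMb2, H2-Ob and Ciita are in this count though they entered through control alone, a route that favours a lower call. With both diets required above background, 6 of 6 genes and 1318 of 7072 features were called lower. The median log2 ratio of the 9 genes was -1.15, and that of all features was 0.01. By pool the genes' median was -1.01 in pool 1, -1.45 in pool 2 and -0.71 in pool 3, with medians over all features of -0.02, 0.01 and -0.03. Ratios at or below -1 were found in 7 of 9 genes and in 5.80% of features, and ratios at or below -2 in 3 of 9 and in 0.600%. The plot of ratios on the 6 arrays shows 8 of 9 genes below 0 on every array, which held for 29.9% of features.

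**Figure D1:**
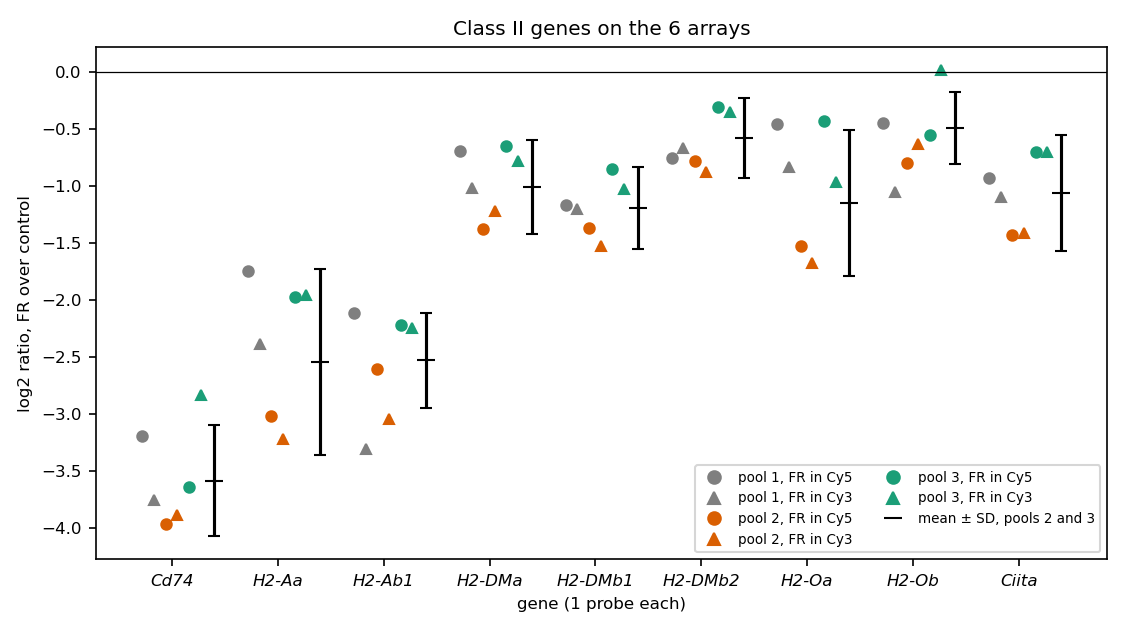
Log2 ratio of FR over control (vertical axis) for the 9 measured class II genes on each of the 6 arrays, with colour giving the pool and shape the dye that carried FR, and the mean ± SD of pools 2 and 3 in black. Cd74, H2-Aa and H2-Ab1 lie between -3.97 and -1.75, the other genes between -1.67 and 0.02.

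The call of 9 of 9 rests on a variance that limma set by signal strength alone. For pools 2 and 3 limma estimated infinite prior degrees of freedom, so a gene's own spread between these pools carried no weight. Single adjusted p-values are then smaller than the pools alone could give. With prior degrees of freedom taken from a fit of 3 pools (5.29), 7 of 9 were called lower against 15.0% of features, and with FR and control channels treated as unpaired samples 7 of 9 against 7.87%. H2-DMb2 and H2-Ob lost their call in both. The p-values in the text come from that variance unless stated.

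Cd74 encodes the invariant chain, the chaperone of newly made class II dimers, and lies at chr18:60803849-60812652 (GRCm38.p6). Its 1 probe had median spot signals in FR blood of 323 and 237 in pool 1, 249 and 200 in pool 2, and 277 and 178 in pool 3, with FR in Cy5 and then in Cy3. The control signals on the same arrays were 1929 and 5622, 2699 and 4434, and 2279 and 3029.5. Local background was 54 to 72 in the FR channel and 52 to 70 in the control channel, so both diets stood clear of it on all 6 arrays and no FR value reached any control value.

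After background correction with an offset and loess normalisation of the dyes, the Cd74 log2 signal was 7.52, 8.00 and 8.13 in FR pools 1 to 3, against 10.99, 11.93 and 11.38 in control pools. The ratio was -3.97 and -3.89 on the 2 arrays of pool 2, -3.65 and -2.84 on those of pool 3, and -3.19 and -3.76 on those of pool 1. Its mean was -3.58 ± 0.49 (SD, n = 2 pools, adjusted p = 2.23e-138, or 0.00149 with the prior of 3 pools and 0.000389 unpaired), a 12.0-fold lower signal. Counted from the lowest ratio, Cd74 ranked 3 among the 7906 named genes tested.

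H2-Aa (chr17:34282744-34287823) and H2-Ab1 (chr17:34263227-34269418) encode the alpha and beta chain of the I-A molecule, the peptide receptor itself in this strain. The brighter of the 2 H2-Aa probes had log2 signals of 7.43, 7.23 and 7.66 in FR pools 1 to 3 and 9.50, 10.36 and 9.62 in control pools. Its ratio was -2.07, -3.12 and -1.96 by pool, with a mean over pools 2 and 3 of -2.54 ± 0.82 (SD, n = 2, adjusted p = 6.47e-65, or 0.00329 with the prior of 3 pools), or 5.83-fold lower. The SD of this gene was the widest of the 9, and pool 2 had both the lowest FR and the highest control signal. The second H2-Aa probe gave -2.74 ± 0.58 (SD, n = 2), with -3.06, -3.15 and -2.33 by pool.

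H2-Ab1 was read by 3 probes. The brightest had log2 signals of 8.82, 9.57 and 9.64 in FR pools and 11.53, 12.39 and 11.88 in control pools, and its ratio was -2.53 ± 0.42 (SD, n = 2, adjusted p = 2.19e-70, or 0.00149 with the prior of 3 pools), 5.78-fold lower. The other 2 probes gave -2.96 ± 0.53 and -2.48 ± 0.52 (SD, n = 2). The first of these was printed in 10 spots on every array, which shows the error of the array surface apart from that of the pools. The SD between its spots was 0.08 to 0.17 on an array, while its array ratios ran between -3.50 and -2.08. On the pool 3 array with FR in Cy3, where the ratio was closest to 0, its spots lay between -2.26 and -1.76, and on the other array of that pool between -3.21 and -2.99. Those spot ranges did not overlap, so for this probe the arrays of one pool differed by more than the spots of an array did.

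The 3 most reduced genes could be ordered only in part. Cd74 had the lowest ratio in each pool, but its ratio on the pool 3 array with FR in Cy3, -2.84, lay above single-array values of H2-Aa (-3.22) and H2-Ab1 (-3.31). H2-Aa and H2-Ab1 differed by less than the spread between pools, and their order was not the same in every pool (-2.07 and -2.71 in pool 1, -3.12 and -2.83 in pool 2). They ranked 16 and 17 from the lowest ratio. No other class II gene had a ratio below -1.67 on any array with its brightest probe.

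**Figure D2:**
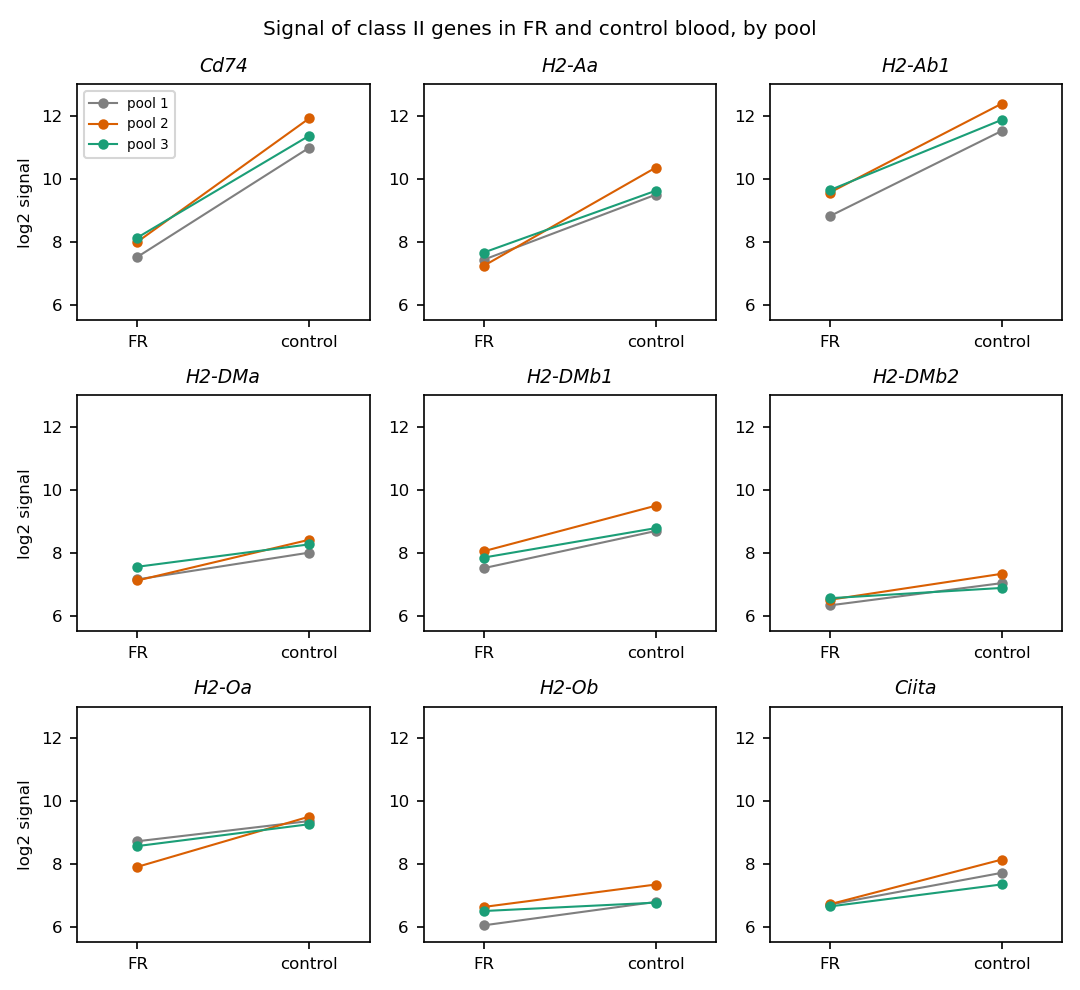
Normalised log2 signal (vertical axis) of the brightest probe of each of the 9 class II genes in FR and control blood, with one line for each pool. In every panel all 3 FR points lie below all 3 control points, and heights are not comparable between genes because each probe has its own response.

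H2-DMa (chr17:34119693-34139101) and H2-DMb1 (chr17:34153191-34160229) encode chains of the H2-DM dimer, which releases the invariant chain fragment and edits the bound peptides. H2-DMa had log2 signals of 7.15, 7.12 and 7.56 in FR pools and 8.01, 8.42 and 8.27 in control pools. Its ratio was -0.85, -1.30 and -0.71 by pool, and the mean of -1.004 ± 0.41 (SD, n = 2, adjusted p = 1.19e-09, or 0.0158 with the prior of 3 pools) is a 2.01-fold lower signal.

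H2-DMb1 had log2 signals of 7.51, 8.05 and 7.85 in FR pools and 8.69, 9.50 and 8.78 in control pools, and its ratio was -1.19 ± 0.36 (SD, n = 2, adjusted p = 2.04e-14, or 0.00742 with the prior of 3 pools). A second, dimmer probe gave -0.87 ± 0.37, with FR above background on 1 of the 4 tested arrays. The signals of both diets did not overlap for either probe. H2-DMa and H2-DMb1 differed by less than the SD of either.

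H2-DMb2 (chr17:34143229-34151553), a second beta chain gene beside H2-DMb1, was close to the limit of detection. Its FR spot signals were 77 to 113 against local backgrounds of 58 to 71, and its control signals were 156.5 to 207.5 against backgrounds of 53.5 to 70. The ratio was -0.71, -0.82 and -0.33 by pool, with a mean of -0.58 ± 0.35 (SD, n = 2, adjusted p = 5.78e-05). The call ended with the prior of 3 pools (adjusted p = 0.0530) and with unpaired channels (0.0828). H2-DMb1 and H2-DMb2 are related genes with similar promoter letters above, and whether each probe reads only its own gene was not tested.

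H2-Oa (chr17:34092379-34095234) and H2-Ob (chr17:34238905-34245908) encode the chains of H2-DO, the modulator of H2-DM. H2-Oa had log2 signals of 8.72, 7.90 and 8.56 in FR pools and 9.36, 9.50 and 9.26 in control pools. Control pools thus lay close together while FR pool 2 lay below the other FR pools, and the ratio was -0.64, -1.60 and -0.70 by pool. Its mean of -1.15 ± 0.64 (SD, n = 2, adjusted p = 3.26e-14, or 0.0189 with the prior of 3 pools) is 2.21-fold lower. Before dye normalisation the FR spot was close to the control spot on 2 of the arrays with FR in Cy5 (831 against 769 in pool 1, 601 against 622 in pool 3). On the exchanged arrays of these pools it was dimmer (456 against 1442 and 166 against 647.5). The second H2-Oa probe gave -1.25, -1.80 and -1.11 by pool, and its mean was -1.45 ± 0.49 (SD, n = 2).

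H2-Ob was not well above background in FR blood on any of the 6 arrays, with FR spot signals of 75 to 108 over backgrounds of 50 to 68. In control blood it was above background on all of them, at 121 to 191. The FR level is therefore only a bound, and that bound of 6.56 equals the measured mean, against 7.05 in control (log2 signal). By mean ratio the probe was 1.40-fold lower in FR blood (-0.49, limma adjusted p = 0.000354), with -0.75, -0.71 and -0.27 by pool. Its array ratios ran between -1.05 and 0.02, and the value of 0.02 came from the pool 3 array with FR in Cy3. The call ended with the prior of 3 pools (adjusted p = 0.0671), with unpaired channels (0.159), with only the FR-in-Cy3 arrays (0.219) and when pool 1 replaced pool 2 (0.0640).

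Ciita (chr16:10480014-10531064) encodes the non-DNA-binding coactivator that switches the other genes on. Its FR spot signals were 143 and 130 in pool 1, 92 and 113 in pool 2 and 103.5 and 107 in pool 3, and its control signals were 245 and 396.5, 260.5 and 312, and 209 and 211. The groups did not overlap. Log2 signals were 6.70, 6.71 and 6.64 in FR pools and 7.71, 8.13 and 7.34 in control pools, so the FR pools spanned far less than the control pools. FR was above background on 2 of the 4 tested arrays. The ratio was -1.01, -1.42 and -0.70 by pool, with a mean of -1.06 ± 0.51 (SD, n = 2, adjusted p = 2.02e-11, or 0.0169 with the prior of 3 pools and 0.0465 unpaired).

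The remaining beta chain gene of the region, H2-Eb2, is no member and did not pass the brightness filter. Its 2 probes read -0.04 and 0.07 with FR above background on 0 and 2 of the 4 tested arrays and control on 0 and 3.

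Taken probe by probe, 14 of 14 class II probes were called lower when every probe was tested as its own feature, where 25.2% of 13258 probes were. FR was above background on all 4 tested arrays for 7 of the 14. The others entered through control alone, a route that favours a lower call. Probes of the same gene share a transcript and are not independent. All 14 had every control pool signal above every FR pool signal, where pool 1 holds the animals of the other pools. The share of all probes with such a gap is not given here. Of the 14, 13 had all 6 array ratios below 0, against 29.9% of features. The size of the fall depended on how background was handled, as the plot of the 14 probes under 3 treatments shows. With Agilent's processed signals, which subtract background without an offset, the median of the 9 genes was -2.52, against -1.15 with the offset and -1.05 with no subtraction. Among the probes that stand for a gene, those that entered through control alone moved most. Ciita was at -2.61, H2-DMb2 at -2.52 and H2-Ob at -2.02, while H2-DMa, H2-DMb1 and H2-Oa, each above background in FR on all 4 tested arrays, were at -1.54, -1.58 and -1.48. The classical chains were at -3.47 for H2-Aa and -2.76 for H2-Ab1, whose other probes read -4.21 and -3.55, so of these values the brightest H2-Ab1 probe alone lay close to Ciita. With both diets required above background, 6 genes remained and their median was -1.86.

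**Figure D3:**
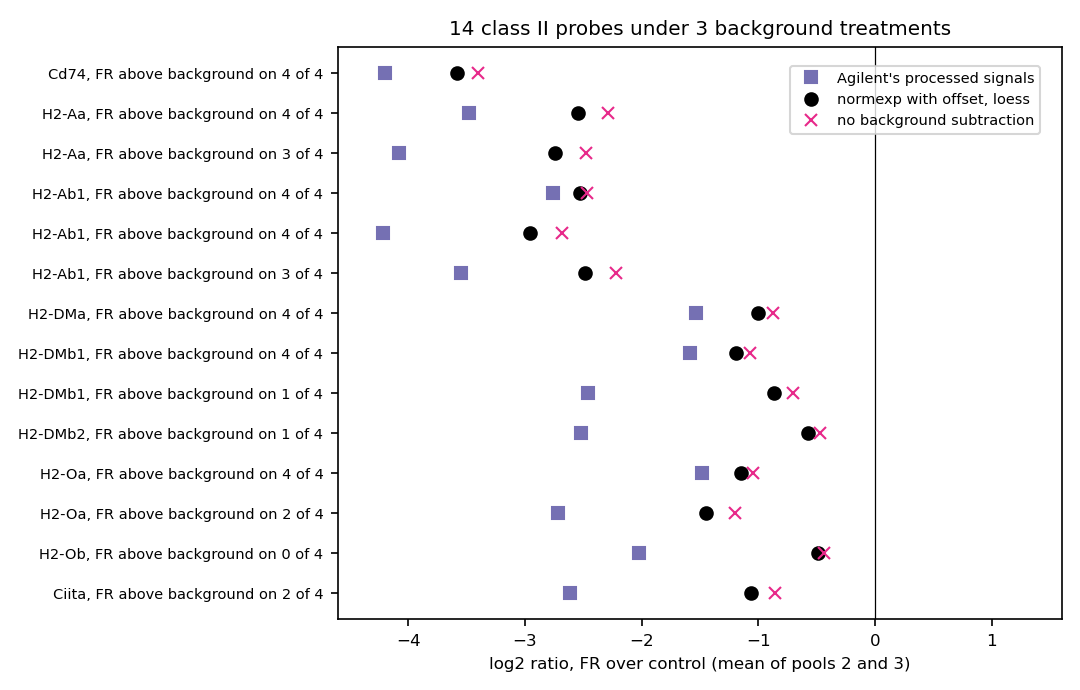
Log2 ratio of FR over control (horizontal axis, mean of pools 2 and 3) of the 14 class II probes, one per row, with Agilent's processed signals (squares), normexp with an offset and loess (circles) and no background subtraction (crosses). All points lie below 0, and in each of the 14 rows the square lies left of the circle and the cross right of it.

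Pool 2 gave the larger falls. The ratio was lower in pool 2 than in pool 3 for 14 of 14 probes. Among all features this was so for 53.9%, and among features called lower for 89.1%. Control signals were higher in pool 2 than in pool 3 for 14 of 14 probes, and FR signals for 6 of 14. The shares of all features for these signal counts are not given here, so they are no result about the class II genes. The array of pool 3 with FR in Cy3 gave the highest of the 6 ratios for 6 of 14 probes, against 30.3% of all features and 52.0% of those called lower. That array had 20.4% of spots above background in FR, the lowest share of any, where the FR range over arrays was 20.4% to 55.6% and the control range 37.2% to 62.1%. The part of signal strength in this difference between arrays was not tested. No spot was saturated, the array ratios correlated with r between 0.70 and 0.94 across features, and pools 2 and 3 with r = 0.85, where features are not independent replicates.

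Counts of the related lists that follow are read against the 24.3% of all features called lower (7.87% with unpaired channels), and a count near that share is no result about a list. A gene that entered through its control signal alone was not well above background in FR on every tested array. That route favours low FR values, so these genes are counted apart. For genes above background in both diets, the matching background is 1318 of 7072 features called lower when both diets had to be above background.

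Of 10 genes of the transcription machinery that CIITA binds, 7 were tested, 2 were called lower and none higher, and the median was -0.19. A count of 2 of 7 is close to the 24.3% of all features, and 6 of the 7 entered through control alone. The 2 calls became 1 with the prior of 3 pools and 0 with unpaired channels. Rfxank, a subunit of RFX, was at -0.62 ± 0.13, and Nfyb, a subunit of NF-Y, at -0.47 ± 0.13 (SD, n = 2). The others tested did not pass, with ratios between -0.28 and 0.08, among them Rfxap and Creb1, and Rfx5 and Nfya were not above background. The difference between this list and the class II genes was not tested.

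Genes upstream of Ciita were lower in 6 of 7 tested members, with a median of -1.46. The interferon regulatory factor gene Irf8 was at -2.01 ± 0.38, the kinase gene Jak1 at -1.96 ± 0.07, Irf1 at -1.66 ± 0.63 and the interferon gamma receptor chain gene Ifngr1 at -1.46 ± 0.52 (SD, n = 2). Jak2 was at -0.32 ± 0.00 and did not pass. Of the 6 lower genes 3 entered through control alone, namely Irf8, Irf1 and Ifngr1. With unpaired channels 4 of 7 were called.

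Of the genes that process the invariant chain and antigen, 6 of 7 tested were lower, with a median of -0.72, and all 7 were above background in both diets. Ctss (cathepsin S), the main protease of the invariant chain in B cells and dendritic cells, was at -3.48 ± 0.88, close to Cd74 itself. Ctsh was at -1.37 ± 0.58, Ctsd at -0.85 ± 0.28 and Ctsz at -0.72 ± 0.39 (SD, n = 2). Lgmn, the asparaginyl endopeptidase, had -0.69 in pool 2 and 0.81 in pool 3 and did not pass. With unpaired channels 3 of 7 were called.

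Among genes of class II turnover and the endosome, 5 of 8 were lower (median -0.43). The lysosomal membrane gene Lamp2 was at -1.45 ± 0.11, the ubiquitin ligase gene Marchf1, which removes class II from the surface, at -1.26 ± 0.27, Lamp1 at -0.95 ± 0.24 and Rab7 at -0.52 ± 0.16 (SD, n = 2), and 3 of 8 were called with unpaired channels. Of the 5 lower genes 2 entered through control alone. The invariant chain also serves as a receptor for the cytokine MIF, and 3 of 5 genes of the ligands and receptor partners were lower (median -0.44). The ligand gene Mif was at -1.10 ± 0.25, the signalling partner gene Cd44 at -0.88 ± 0.02 and the second ligand gene Ddt at -0.44 ± 0.28. Ddt lost its call with the prior of 3 pools (adjusted p = 0.123) and with unpaired channels (0.259). Of 8 costimulation genes only Icosl and Cd83 were tested. Neither was above background in FR on any tested array, so their FR levels are only bounds. By mean ratio both were 1.87-fold lower in FR blood (limma adjusted p = 2.01e-10 and 5.91e-11). Icosl lost its call with unpaired channels (0.0508). T cell partners of class II were lower in 2 of 5 (median -0.12), Cd3d at -1.89 ± 0.25 and Lck at -1.39 ± 0.33, and both had entered through control alone. With 5 genes tested that count is not far from the 24.3% of all features.

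Neighbours in the class II region were split. The immunoproteasome genes Psmb8 and Psmb9, at -1.54 ± 0.48 and -1.30 ± 0.35, were lower, while the peptide transporter genes Tap1 and Tap2, at 0.12 and 0.01, did not pass. Class I genes were lower in 8 of 11 (median -1.30), with B2m, the class I light chain gene, at -2.33 ± 0.05, H2-Q7 at -1.83 ± 0.58 and Psmb10 at -1.67 ± 0.51 (SD, n = 2). Of the 8 lower class I genes 3 entered through control alone. Psmb8, Psmb9, Tap1 and Tap2 are counted in both lists. None of these lists had a member called higher.

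**Figure D4:**
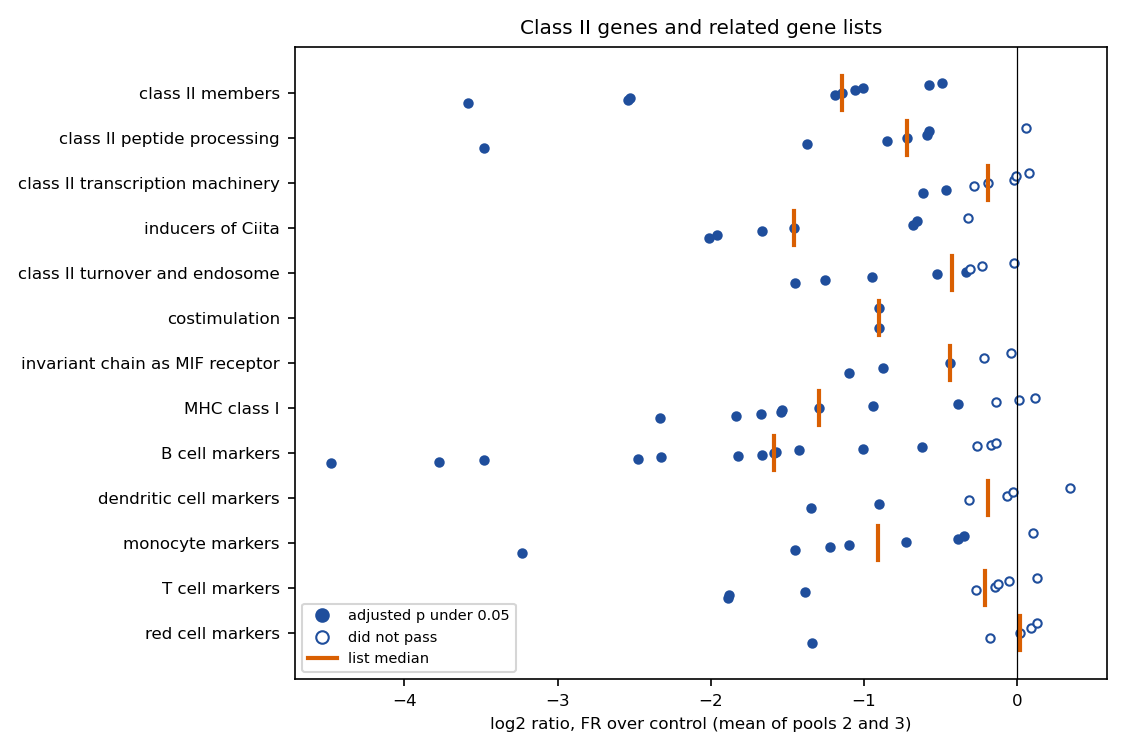
Log2 ratio of FR over control (horizontal axis, mean of pools 2 and 3) of each tested gene, by list, with filled points at adjusted p under 0.05, open points for the rest and an orange bar at the list median. The 9 class II genes are all filled with a median of -1.15, and B cell markers reach -4.48 while red cell markers centre at 0.01.

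The cells that carry class II were followed by their markers. In RNA from whole blood, fewer cells of a type and less RNA per cell cannot be told apart. B cell markers were lower in 12 of 15 tested (median -1.59), and their summed signal was 2336, 2993 and 2901 in FR pools 1 to 3 against 10245, 17829.5 and 11903 in control pools. Without Cd79b, the brightest, the sum was 2197, 2740 and 2684 in FR pools against 7133, 11390 and 7677 in control pools. Of the 12 lower markers 9 entered through control alone, and of the 6 above background in both diets 3 were lower. Cd79b, a signalling chain of the B cell receptor, was at -4.48 ± 0.27, Fcmr, the IgM Fc receptor gene, at -3.77 ± 0.31, Ms4a1 (CD20) at -3.48 ± 0.43 and the coactivator gene Pou2af1 at -2.47 ± 0.46 (SD, n = 2). The partner chain Cd79a, at -0.14 ± 0.13, did not pass, so defining B cell genes did not move by one amount. Blk, Pax5 and Ebf1 were not bright enough to be tested.

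Monocyte markers were lower in 7 of 8 (median -0.91). Of the 7, 5 entered through control alone, and Ccr2, Fcgr1 and Ms4a6c were above background in FR on no tested array. The summed signal of 4258, 4204 and 5332 in FR pools against 31292, 42669 and 30678 in control pools was mostly that of Lyz2. Without Lyz2 it was 1058, 1200 and 1049 in FR pools against 2214, 2857 and 2032 in control pools. Lyz2 (lysozyme) was at -3.23 ± 0.70, F13a1 at -1.45 ± 0.05, Klf4 at -1.22 ± 0.34 and Csf1r, the receptor for CSF1, at -1.10 ± 0.56 with its brightest probe. With unpaired channels 3 of 8 were called. The other 2 Csf1r probes read -0.07 and 0.15. Dendritic cell markers were lower in 2 of 6 (median -0.19), Ccr7 at -1.35 ± 0.25 with FR above background on 1 of 4 tested arrays, and Cd83, 1.87-fold lower by mean ratio as given above. Both entered through control alone, and of the 4 markers above background in both diets none was called lower by limma, with the prior of 3 pools and unpaired channels included. Before adjustment Xcr1 alone of the 4 was lower below 0.05, and Flt3 alone was higher below 0.05. Flt3, at 0.34 ± 0.05, and Zbtb46, Xcr1 and Batf3 did not pass, Itgax (CD11c) was not above background in FR on any tested array, and Clec9a, Siglech and Cd209a were not above background in either diet. The dendritic list summed to 21452, 19920 and 18596 in FR pools and 21176, 20890 and 19895 in control pools, nearly all of it from Zbtb46. The Zbtb46 probe had a mean log2 signal of 14.23, and whether it reads only its own gene was not tested. Without Zbtb46 the sum was 1024, 856 and 911 in FR pools against 1282, 1215 and 1085 in control pools.

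The other blood cell lists are given for the range of values, and counts near 24.3%, the share of all features, are no result about them. T cell markers were lower in 3 of 8 (median -0.21), with Cd3d and Thy1 at -1.89 and -1.88 and Cd3e at -0.05 ± 0.14. Of the 3, 2 entered through control alone. Neutrophil markers were lower in 3 of 6 (median -0.32), led by S100a9 at -0.73 ± 0.77, and in 0 of 6 with the prior of 3 pools or unpaired channels. Platelet markers were lower in 6 of 6 (median -1.13), with Ppbp at -2.67 ± 0.55. Red cell markers were lower in 1 of 5 (median 0.01), with the globin gene Hba-a1 at 0.01 ± 0.21 (SD, n = 2). The labelled tissue, blood, thus showed its erythroid, platelet and white cell genes in both diets. How much of the class II values goes with the B cell and monocyte markers was not tested.

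The genes closest to Cd74 by Euclidean distance of their log2 ratios over the 3 pools, among 7897 tested genes outside the class II list, were Ms4a1 (distance 0.19), Ctss (0.48), Fcmr (0.58), Ly6d (0.59) and Lyz2 (0.61). Ms4a1 ran at -3.59, -3.79 and -3.18 in pools 1 to 3, beside -3.47, -3.93 and -3.24 for Cd74. Among the closest to Ciita were Csf1r (0.08), Slc38a1 (0.09), Psmd3 (0.11) and H3c4 (0.11). Csf1r ran at -0.99, -1.49 and -0.70 beside -1.01, -1.42 and -0.70 for Ciita. Over 3 pools that share animals this likeness is a description of size and pool order.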

How the data were processed

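Per the labels, whole blood RNA was column-extracted, linearly amplified and hybridised to two-colour Agilent arrays. Spot intensity values in the deposited scanner files are median signals, median backgrounds and processed signals of both dyes. The submitters' processing notes name Agilent Feature Extraction 11.0.1.1. In the deposited series table, log10 values equalled the ratio of processed red over green signal. That table was neither centred nor turned, and served as an alternative.

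Intensities were background corrected with normexp (offset 50) on median signals, normalised by loess within arrays (control spots at weight 0), freed of spots marked as outliers, averaged over the spots of a probe and turned to FR over control by the dyes in the labels. The 2 arrays of a pool were averaged. Probes well above background in FR or in control on all 4 arrays of pools 2 and 3 were kept, 13258 of 41174, and the brightest stood for its gene. Names came from RefSeq accessions (23374 probes matched, GRCm38.p6 table), which also gave gene positions. The mean ratio of pools 2 and 3 was set against 0 by limma 3.58.1 (R 4.3.3, eBayes with trend, two-sided), and p-values were adjusted by Benjamini-Hochberg over 11499 features. The fit was also run on simulated data. Over 20 runs it recovered 53.9% of changes of 0.5 log2 and 99.8% of changes of 1, with 4.80% false calls. These runs are no test of the class II calls. FR and control are paired by sharing an array. Signals per channel are log2 after loess and Aquantile normalisation. The number of arrays limits the precision.

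Lists were named by their up to 4 called members of largest change, with defining markers added whatever their call. Genes named outside that rule, such as Tap1, Jak2 and Lgmn, were picked after their values were seen. The class II genes and all lists were chosen with earlier results of these data known. In all, 18 alternatives were run. A few genes that the naming rule took are not reported here.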

Additional observations from a re-analysis of the deposited data

How the results depend on the processing

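Over 18 alternatives the 9 genes gave 159 values, all below 0, and 153 kept the call. The 6 that lost it were 4 of H2-Ob and 2 of H2-DMb2. The 159 values are not separate checks of sign. Alternatives that changed only the filter, the unit tested, the pairing or the variance model repeated the main ratio. The deposited series table repeated the processed signals. The H2-Ob ratio was -0.51 without pool 2 and -0.31 with only FR in Cy3 (limma adjusted p = 0.0640 and 0.219). With prior degrees of freedom from 3 pools, and again with no replicate block, that is with the pairing on the array ignored, H2-Ob kept -0.49 and H2-DMb2 -0.58 but missed the threshold (adjusted p of 0.0671 and 0.0530, then 0.159 and 0.0828). H2-DMb2, H2-Ob and Ciita gave no value when both diets had to be above background. The genes' median was -2.52 with processed signals and with the deposited series table and -1.86 with both diets above background (6 genes), and ran between -1.21 and -0.85 when pool 1 replaced pool 3 or pool 2. In those replacements 8 to 9 genes were called lower and 0 higher, with 2373 to 4145 features lower and 493 to 1716 higher (main counts 2795 and 435). The count of 1716 came with pool 1, which holds the animals of pool 2, in the place of pool 3. Tested probe by probe, 14 of 14 were lower, and for 7 of these FR was above background on all 4 tested arrays. Features called lower were 1318 with both diets above background, 1723 with the prior of 3 pools and 905 with no replicate block. Features called higher were 179 with median centring, 917 with all 3 pools, 1002 with only FR in Cy5, 691 with slide as a block, 176 with the prior of 3 pools and 108 with no replicate block. Median centring in place of loess set the median of all features to -0.18 and the lower share of calls to 95.8%, against 86.5%, and that share was 76.6% with both diets above background, 75.6% with only FR in Cy5 and 70.7% without pool 3. The class II median with median centring was -1.35. Apart from the shorter lists under stricter filters, the cause of these shifts was not tested. Signal over background limits H2-DMb2, H2-Ob and Ciita, whose FR spots lie near it.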
